A study of Mus musculus with 2 samples.

Results

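Elane, Mpo, Prtn3, Ctsg and Ms4a3, the genes read here as azurophil granule genes, were followed in 2 single-cell RNA libraries of mouse spleen. The members were taken by symbol from the deposited gene list, 5 genes of 26124, and each symbol named 1 row. Of these genes, 3523 counted as expressed in all kept cells (at least 50 CPM, counts scaled to a fixed total over the cells summed, and 20 molecules in 1 library). Elane, Mpo and Prtn3 reached 50 CPM in both libraries, and Ctsg and Ms4a3 in the SCD library alone. The control library (wild-type in the labels and in the plots) came from a mouse homozygous for Hbatm1Paz, heterozygous for Hbbtm1Tow and hemizygous for Tg(HBA-HBBs)41Paz, labelled non-sickling. The SCD library came from a Berkeley sickle cell mouse that was homozygous for Hbatm1Paz, for Hbbtm1Tow and for Tg(HBA-HBBs)41Paz, labelled sickling. Both groups thus shared homozygous Hbatm1Paz and carried the transgene, and mice were 12 to 16 weeks old and untreated. Each group held 1 library, so differences were not checked against replicates, and every interval given is a 95% interval for counting error only.

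Azurophil granules are the first granules that a neutrophil precursor makes, at the promyelocyte stage, and their messenger RNAs are largely lost before the cell matures. Elane encodes neutrophil elastase, Prtn3 proteinase 3 and Ctsg cathepsin G, a trio of serine proteases. Mpo encodes myeloperoxidase, the heme enzyme that makes hypochlorous acid. Ms4a3 encodes a membrane protein of granulocyte and monocyte precursors and is not itself a granule content protein. Monocyte precursors also transcribe Mpo, Prtn3, Elane and Ctsg. A spleen with extramedullary haematopoiesis can hold such precursors.

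In the GENCODE M21 annotation of GRCm38 the members were protein-coding genes. Prtn3 (ENSMUSG00000057729, chr10:79874476-79883174) and Elane (ENSMUSG00000020125, chr10:79886247-79888215) lay on the plus strand with 3072 bases between them. Mpo (ENSMUSG00000009350) lay at chr11:87793581-87804413 on the plus strand. Ctsg (ENSMUSG00000040314) lay at chr14:56099881-56102574 and Ms4a3 (ENSMUSG00000024681) at chr19:11629496-11640851, both on the minus strand.

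The stretches before their RefSeq start sites (GRCm38.p6, 250 bases, an entry matched for each of the 5 genes) were searched for short motifs of myeloid transcription factors on both strands. The motifs were GAGGAA for PU.1, CAACNG for MYB, TGTGGT for RUNX and TTNNGNAA for C/EBP. They are shown for Elane and Mpo, whose shares differ in opposite directions between the lineage sides below, and for Prtn3, the neighbour of Elane, as far as no GENCODE exon covers the bases, with motif letters in capitals. The windows are chr10:79886062-79886246, chr10:79879417-79879613 and chr11:87793534-87793580, all on the plus strand. The RefSeq starts used for Elane, Prtn3 and Mpo lie inside the GENCODE gene bounds given above.
Elane: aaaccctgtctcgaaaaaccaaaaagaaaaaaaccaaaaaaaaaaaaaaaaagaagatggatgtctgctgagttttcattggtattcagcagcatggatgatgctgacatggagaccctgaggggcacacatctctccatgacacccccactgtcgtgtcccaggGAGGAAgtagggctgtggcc
Prtn3: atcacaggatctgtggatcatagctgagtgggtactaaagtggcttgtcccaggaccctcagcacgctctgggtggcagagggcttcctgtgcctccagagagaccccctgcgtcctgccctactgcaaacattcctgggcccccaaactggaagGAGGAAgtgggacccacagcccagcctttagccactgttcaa
Mpo: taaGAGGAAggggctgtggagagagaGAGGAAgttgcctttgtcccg

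The searched stretches of Elane and Prtn3 shared an order of motifs. A GAGGAA began 85 bases before the start of Elane and 95 bases before that of Prtn3, and a match to CAACNG followed at 51 and 56 bases. The Elane match lies outside the printed stretch, and the Prtn3 match begins in it and runs past its end. Mpo held GAGGAA at 247 and 224 bases and no MYB motif. Ctsg held a GAGGAA at 216 bases, MYB motifs at 93 and 36 bases and the only RUNX motif of the set, at 79 bases. Ms4a3 held a C/EBP motif at 59 bases and no other. Over 32851 RefSeq promoter stretches of the same length, 23.3% held the PU.1 motif, 29.3% the MYB motif, 14% the RUNX motif and 36.8% the C/EBP motif, so a match is a description of the letters and not evidence of binding.

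Both suspensions had been depleted of red cells and passed through a bead kit that removes cells other than dendritic cells (DCs), so the shares of cells below are shares of what that kit left. The control matrix held 10845 barcodes and 97880318 unique molecular identifiers (UMIs), and the SCD matrix 13447 barcodes and 189688217 UMIs. Cells with at least 500 genes, under 15% mitochondrial and under 30% ribosomal UMIs were kept with no upper limit on genes, which left 9718 control and 11855 SCD cells with a median of 5156 and 9065 UMIs. The libraries shared 88 barcodes, which held 43 control and 371 SCD member UMIs. Clusters were built without the 5 members, so that member levels in a cluster did not come from the clustering itself. Clusters 0, 1, 2, 4, 10, 20 and 23 were called neutrophil-like and clusters 5, 7 and 14 monocyte-like by marker genes. Control neutrophil-like cells lay mostly in cluster 0, led by Il1b and Csf3r (84.3%, against 14.1% in SCD), and SCD ones mostly in clusters 1, 2 and 4.

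The members were higher in the SCD library, as a sum and one by one. Over all kept cells the summed members stood at 308 CPM (304 to 312) in the control and 1837 CPM (1831 to 1843) in SCD. The ratio was 5.96 (5.88 to 6.04), a log2 difference of 2.56, which was 3.38 with at most 5000 genes per cell and 3.65 without the 10 richest cells of each library. Prtn3 went from 96.0 to 721 CPM, a ratio of 7.51 (7.34 to 7.69). Ctsg went from 24.4 to 172 CPM, a ratio of 7.05 (6.73 to 7.38). For Mpo the levels were 66.1 and 372 CPM and the ratio 5.63 (5.47 to 5.79). For Ms4a3 they were 13.6 and 70.2 CPM, with a ratio of 5.15 (4.84 to 5.48). For Elane they were 108 and 502 CPM, with a ratio of 4.65 (4.55 to 4.75). UMIs of a 3′ library count 1 end per molecule and were not scaled by gene length.

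On the scale of log2(CPM + 5) the SCD minus control differences of the members were 2.17 for Elane, 2.41 for Mpo, 2.85 for Prtn3, 2.59 for Ctsg and 2.01 for Ms4a3. Elane, Mpo and Prtn3 were past 2-fold, in a comparison where 2.24% of the 3523 expressed genes were higher in SCD by that much, 11.5% were lower and the median gene stood at -0.13. Prtn3 held rank 1, Mpo rank 4 and Elane rank 5 among all expressed genes ordered by this difference. Ctsg and Ms4a3 counted as expressed only through the library where they were high, so their differences are a description. The order among members moved with the scale, Ms4a3 having the smallest log2 difference and Elane the smallest ratio, and with at most 5000 genes Elane (3.23) stood above Mpo (2.87), Ctsg (2.82) and Ms4a3 (2.44).

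**Figure D1:**
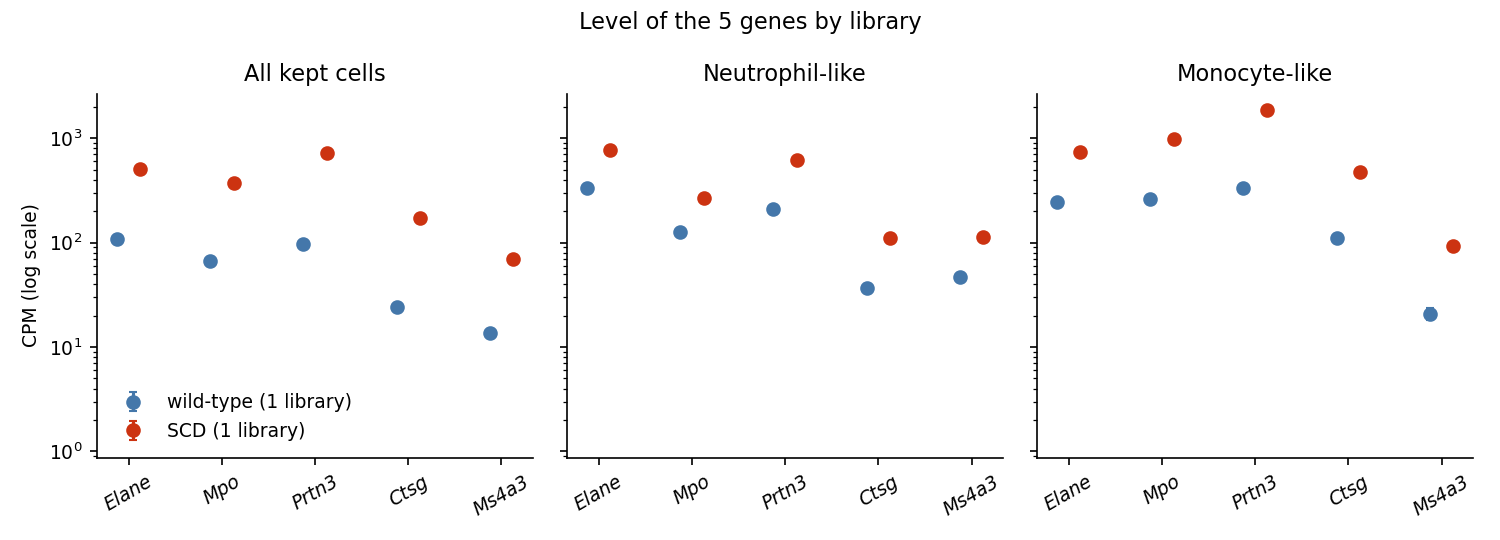
Level of each member in CPM (log axis) by library, wild-type and SCD, over all kept cells, neutrophil-like cells and monocyte-like cells, 1 library per group. Bars are 95% Poisson intervals, mostly smaller than the points, and every SCD point lies above its wild-type point.

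Within the neutrophil-like class (4375 control and 7197 SCD cells) the summed members stood at 758 and 1877 CPM, a ratio of 2.48 (2.43 to 2.52). As a log2 difference this was 1.30, which was 2.18 with at most 5000 genes per cell and 2.87 without the 10 richest cells of each library. Elane led in both libraries, at 337 CPM in the control and 776 CPM in SCD. Prtn3 stood at 212 and 613 CPM and Mpo at 125 and 265 CPM. Ctsg (37.1 and 111 CPM) and Ms4a3 (47.1 and 112 CPM) were the lowest. The log2 differences were 1.19 for Elane, 1.05 for Mpo and 1.51 for Prtn3, past 2-fold, where 1.33% of 2483 expressed genes were higher by that much, 19.4% were lower and the median stood at -0.37. With a pseudocount of 20 CPM Mpo was short of 2-fold, at 0.97. Ctsg (1.46) and Ms4a3 (1.17, or 0.98 with that pseudocount) reached 50 CPM in SCD alone and are given as a description.

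Within the monocyte-like class (992 and 1791 cells) the sum stood at 972 and 4137 CPM, a ratio of 4.25 (4.17 to 4.34). As a log2 difference this was 2.08, which was 3.35 with at most 5000 genes per cell and 3.07 without the 10 richest cells of each library. Here Prtn3 led, at 333 CPM in the control and 1847 CPM in SCD. Mpo followed at 260 and 987 CPM and Elane at 247 and 733 CPM. Ctsg stood at 112 and 478 CPM, and Ms4a3 was lowest at 20.7 and 92.5 CPM. On the log2 scale the differences were 1.55 for Elane, 1.90 for Mpo, 2.45 for Prtn3 and 2.05 for Ctsg, past 2-fold, where 4.8% of 3560 expressed genes were higher in SCD by that much and 8.54% lower. Ms4a3 (1.92) reached 50 CPM in SCD alone. With at most 5000 genes its difference was smaller, 1.14 (0.06 to 2.48), whereas that of the sum was larger. Specific granule genes, markers of neutrophils, moved with the members in this class. Ltf stood at 11.6 and 75.2 CPM, Camp at 36.1 and 214 CPM, Ngp at 26.4 and 174 CPM and Lcn2 at 25 and 123 CPM, ratios of 4.91 to 6.58, whereas Cd177 was lower in SCD (130 and 60.4 CPM). The first 4 of these also reached 50 CPM in SCD alone, and their part in the members' difference was not tested. The class means also carried the mix of clusters, because the share of monocyte-like cells in cluster 7 was 9.38% (7.63% to 11.4%) in the control and 48.5% (46.2% to 50.9%) in SCD.

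The order of the classes followed the depth limit. With no upper limit the members were higher in monocyte-like than in neutrophil-like cells in both libraries, the neutrophil-like level being 0.780 of the monocyte-like one in the control and 0.454 in SCD. With at most 5000 genes per cell, the limit of the study, these ratios were 4.20 and 1.79. That limit took out 48 of 992 control and 504 of 1791 SCD monocyte-like cells, which held 92.6% and 89.2% of the member UMIs of that class. In the control it also took out 3 neutrophil-like cells that held 52.8% of that class's member UMIs.

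The members were concentrated in few cells. In the control library 8 of 9718 cells (0.0823%) held 50% of the 24505 member UMIs and 37 cells held 90%. In the SCD library 127 of 11855 cells (1.07%) held 50% of the 316148 member UMIs and 532 cells held 90%. With at most 5000 genes per cell, 50% lay in 4 control cells (0.0425%) and 46 SCD cells (0.432%). The single richest cell held 2363 member UMIs in the control, 9.64% of that library's total, and 3148 in SCD, 0.996% of the total. The top 1% of cells held 96.1% of the control and 48.2% of the SCD member UMIs.

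In both libraries Elane needed the fewest cells. The richest cells holding 50% of the Elane UMIs numbered 6 in the control and 78 in SCD. For Prtn3 the numbers were 9 and 154 cells, and for Ms4a3 9 and 125 cells. For Mpo they numbered 9 and 110, and for Ctsg 8 and 102. Only Elane (2 control and 6 SCD cells) and Prtn3 (1 SCD cell) reached 1000 UMIs in a cell.

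**Figure D2:**
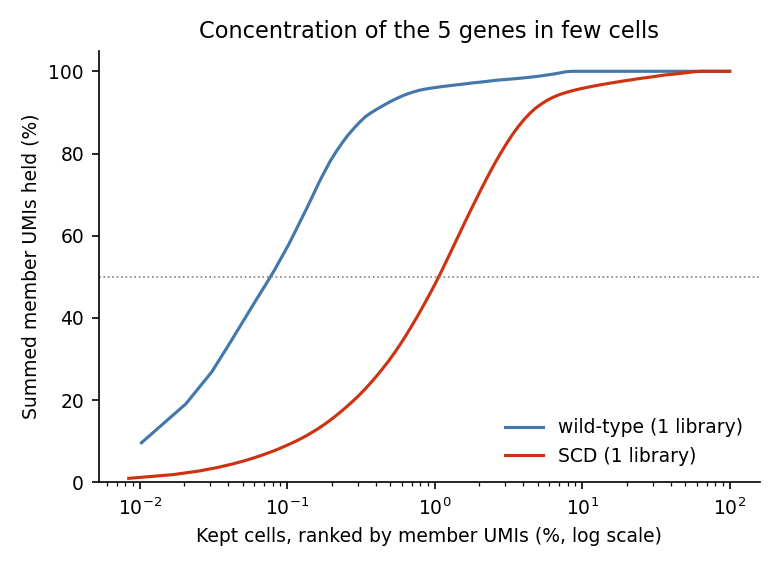
Share of the summed member UMIs (%) held by the kept cells, ranked from the richest in members, against the percent of kept cells on a log axis, for each library. The dotted line marks 50%, which the wild-type curve crosses at 0.0823% of cells and the SCD curve at 1.07%.

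Cells holding UMIs of all 5 members numbered 36 in the control (0.370% of cells) with 88.7% of the member UMIs, and 496 in SCD (4.18%) with 86.2%. Of cells with 10 or more Elane UMIs, 100% also held Prtn3 in both libraries, and 91.1% of the 45 control and 96.2% of the 605 SCD ones held Mpo. At 1 UMI such shares are high in deep cells of other types too, and in SCD erythroid-like cells 66.9% held Prtn3, 55.7% Mpo and 47.5% Elane. Prtn3 was the least restricted. Of the 943 SCD cells with 10 or more Prtn3 UMIs, 92.9% held Elane, 87.5% Mpo and 58.3% Ms4a3.

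Holding a single UMI said little. At least 1 member UMI was found in 8.05% (7.51% to 8.61%) of control and 60.1% (59.2% to 61.0%) of SCD cells, a ratio of 7.47 (6.94 to 8.05). For single members the shares were 2.15% and 23.8% for Elane, 2.73% and 27.6% for Mpo, 3.89% and 36.4% for Prtn3, 1.36% and 15.2% for Ctsg, and 1.49% and 13% for Ms4a3. Among the control holders of any member 66.9% held exactly 1 UMI, and among the SCD holders 41.0%. B cell-, plasmacytoid DC-, red pulp macrophage- and erythroid-like cells, which should lack these genes, were read as the background, leaving out azurophil-high cells (defined below). In these 1312 control and 1548 SCD cells the share with a member UMI was 8.54% and 63.5%, no lower than over all cells, at a median of 10676 and 9829 UMIs per cell.

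Thinning every cell to 1000 UMIs, which left out 158 control and 68 SCD cells, gave 2.23% (1.94% to 2.54%) and 18.5% (17.8% to 19.2%) over all cells. Plasmacytoid DC-like cells, with 0.919% and 8.59%, and erythroid-like cells, with 1.24% and 10.4%, were 2 of the background classes. B cell-like cells had 9.87% in SCD and 1 of 21 cells in the control, and red pulp macrophage-like cells 1.91% and 13%. Neutrophil-like cells outside cluster 10 had 1.78% and 12.1% when pooled, beside 1.22% (0.682% to 2.00%) and 9.78% (8.33% to 11.4%) in the pooled background classes. Among them SCD clusters 1 and 2 had 11.1% and 8.33% and cluster 4 had 11.9%. SCD cluster 0 had 21.1% (18.6% to 23.8%), against 1.70% in the control. Its interval overlapped that of SCD red pulp macrophage-like cells (7.92% to 19.8%). Both were shallow, with a median of 2286 UMIs per cell in cluster 0 over the libraries and 1562 in those macrophage-like cells. Before thinning, cluster 0 held 548 member UMIs in 1012 SCD cells, beside 355 in 419 SCD plasmacytoid DC-like cells. SCD cluster 20 had 18.4% (12.0% to 26.3%), and 66.4% of the cells of cluster 20 were called doublets. Cluster 10 had 31.8% and 39.2%, and cluster 7 had 41.9% and 66.3%, above every background class named here. Monocyte-like cells outside cluster 7 had 2.68% and 21.8%, where Prtn3 made most of the SCD value.

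The make-up of the low-level UMIs in SCD was close between clusters 0 and 2 and varied among the background classes. Of the member UMIs in cluster 0, 21.9% were Elane, 33.8% Mpo and 32.5% Prtn3. In cluster 2 the shares were 21.2%, 31.4% and 33.4%, and in the pooled background classes, which hold mostly UMIs of erythroid-like cells, 22.1%, 24.3% and 40.6%. Mpo alone gave 40.3% (34.0% to 47.0%) in B cell-like, 36.1% (24.2% to 49.4%) in red pulp macrophage-like and 27.0% (22.5% to 32.0%) in plasmacytoid DC-like cells. How much of the low level came from RNA outside cells was not tested.

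Cluster 10 and cluster 7 together held 88.8% of the control and 81.8% of the SCD member UMIs. Cluster 10 (neutrophil-like) was led by Fcnb, which marks neutrophil precursors, beside Elane, Ms4a3, Chil3 and Nkg7, with Camp and Cebpe among its first 10 genes. Cluster 7 (monocyte-like) was led by Mpo, Ctsg and Prtn3, then by F13a1, a monocyte gene, and by Lgals1. Genes of cell division were high in both clusters. A list of 12 such genes summed to 4409 CPM in the control and 4070 CPM in the SCD cells of cluster 10, and to 5379 and 4887 CPM in cluster 7.

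Both clusters held a larger share of the SCD than of the control library, whereas the member level within them depended on a few control cells. Cluster 10 held 66 control cells, 0.679% (0.526% to 0.863%) of the library, and 649 SCD cells, 5.47% (5.07% to 5.90%). Within it the summed members stood at 7210 CPM in the control and 7516 CPM in SCD, a ratio of 1.04 (1.02 to 1.06). Elane stood at 3262 and 3184 CPM, a ratio of 0.976 (0.949 to 1.0), and Ms4a3 at 395 and 408 CPM, a ratio of 1.03 (0.952 to 1.12). Mpo stood at 1179 and 1023 CPM and Prtn3 at 2022 and 2465 CPM. Ctsg stood at 352 and 437 CPM, a ratio of 1.24 (1.14 to 1.35). The Ctsg ratio was 2.57 with at most 5000 genes and 12.1 (8.60 to 17.6) without the 10 richest cells of each library. With at most 5000 genes, which left 63 control and 641 SCD cells, the sum was 3553 and 6757 CPM, a ratio of 1.90 (1.85 to 1.96), and Elane and Mpo were then higher in SCD, with ratios of 1.79 and 1.52. Without the 10 richest cells of each library, which left 61 control and 640 SCD cells here, the ratio of the sum was 3.10 (2.99 to 3.22).

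Cluster 7 held 93 control cells, 0.957% (0.773% to 1.17%), and 869 SCD cells, 7.33% (6.87% to 7.81%). Within it the sum stood at 4021 and 5757 CPM, a ratio of 1.43 (1.40 to 1.46). Elane stood at 1034 and 1026 CPM, a ratio of 0.993 (0.953 to 1.03). With no upper limit on genes Prtn3 had the largest ratio, 1351 against 2533 CPM, or 1.88 (1.81 to 1.94). Ctsg (458 and 673 CPM), Ms4a3 (86.4 and 131 CPM) and Mpo (1091 and 1394 CPM) lay between, with ratios of 1.47, 1.51 and 1.28. With at most 5000 genes, which left 45 control and 373 SCD cells, the ratio of the sum was 3.0 (2.74 to 3.28). Elane then had a ratio of 2.36, and without the 10 richest cells of each library these ratios were 2.75 and 2.31. Ms4a3 had the largest ratio in both settings, 4.0 (1.34 to 19.7) and 7.34 (5.36 to 10.3), beside 3.53 and 3.35 for Prtn3. These intervals treat UMIs as independent, whereas most of a cluster's member UMIs came from few cells, and they do not cover the spread between cells.

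**Figure D3:**
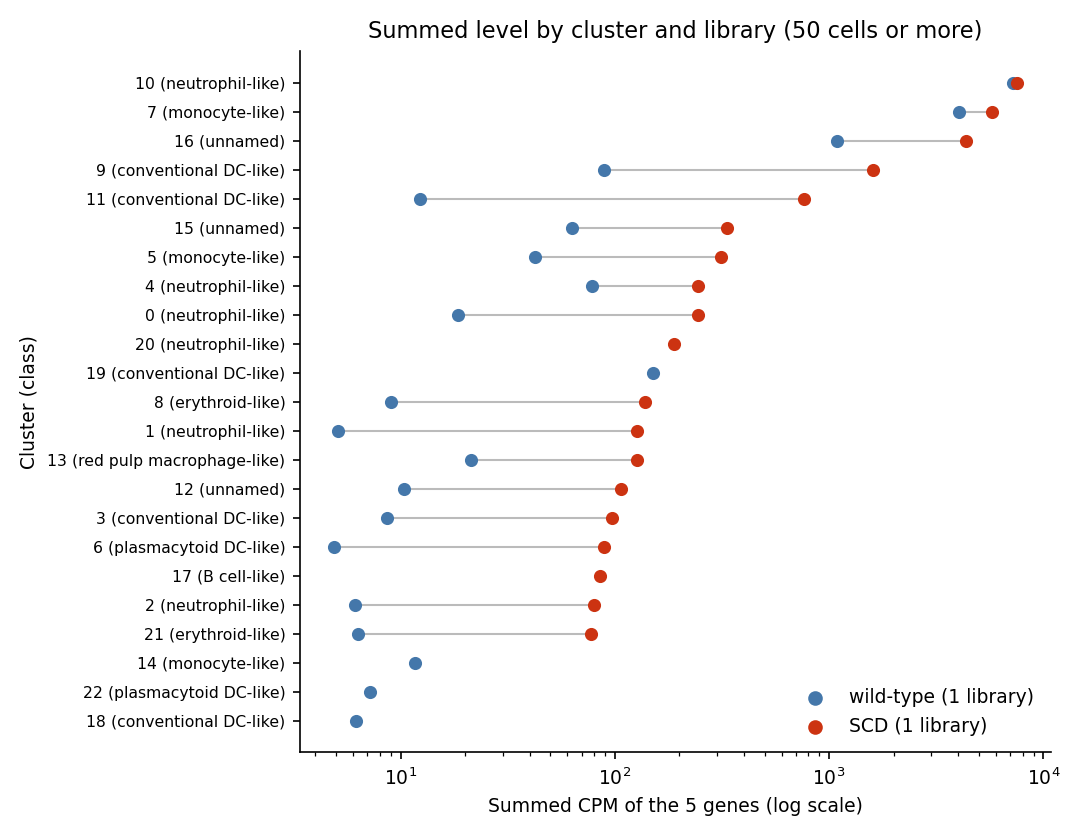
Summed CPM of the 5 members (log axis) in each cluster with at least 50 cells in a library, wild-type and SCD joined by a grey line where both qualified. Clusters 10 and 7 stand at the top, at 7210 and 7516 CPM and at 4021 and 5757 CPM with no upper limit on genes, whereas clusters of other classes mostly lie near 100 CPM in SCD and near 10 CPM in the wild-type.

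Further clusters stood above the pooled background classes for some members, in CPM. In cluster 4, neutrophil-like and led by Orm1, Ngp, Camp and Ltf of the specific granule stage, Ms4a3 stood at 48.4 CPM (39.4 to 58.7) in 167 control cells and 54.6 CPM (51.0 to 58.4) in 1355 SCD cells. It was held by 24.6% and 26.9% of those cells, the libraries overlapping in their intervals. In the pooled background classes Ms4a3 stood at 0.286 and 2.90 CPM. Elane stood at 8.53 and 75.3 CPM in cluster 4, beside 1.19 and 13.5 CPM in the background classes, and Prtn3 at 16.1 and 68.4 CPM, beside 3.8 and 24.8 CPM.

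In cluster 5, monocyte-like and led by Fn1, Vcan and Ccl9, Prtn3 stood at 26.7 CPM (22.6 to 31.5) in 505 control cells and 231 CPM (222 to 240) in 874 SCD cells. It made up 63.0% of the control and 73.5% of the SCD member UMIs there, and 75.2% of the SCD cells held it. Mpo in cluster 5 stood at 3.32 and 24.4 CPM, beside 1.92 and 14.9 CPM in the pooled background classes. In SCD, plasmacytoid DC-, B cell- and red pulp macrophage-like cells taken singly stood at 25.4, 34.5 and 45.8 CPM, so Mpo in cluster 5 was not above them. Cluster 14, monocyte-like and led by Ace, Cd36 and Adgre4, held only 30 member UMIs in 394 control cells and 29 in 48 SCD cells. These gave 11.65 and 101 CPM, and 6.09% and 47.9% of the cells held a member UMI.

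The cells of cluster 7 that were not azurophil-high were also richest in Prtn3. It gave 44.2% (41.8% to 46.6%) of their member UMIs in the control (79 cells) and 60.5% (59.9% to 61.1%) in SCD (626 cells). Its level there was 381 and 899 CPM, a ratio of 2.36 (2.20 to 2.55), whereas Ctsg stood at 138 and 146 CPM, a ratio of 1.05 (0.929 to 1.20). Ms4a3 was the lowest member in them, at 5.09 and 10.4 CPM, above its 0.286 and 2.90 CPM in the background classes.

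Outside the named classes, cluster 16 stood at 1093 and 4339 CPM. The DC-like clusters 9 and 11 reached 1595 and 760 CPM in SCD, and in the DC-like class as a whole 4 SCD azurophil-high cells held 81.4% of the member UMIs.

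Cells with at least 0.5% of their UMIs and at least 10 UMIs from the members were called azurophil-high. They numbered 31 of 9718 in the control, 0.319% (0.217% to 0.453%), and 423 of 11855 in SCD, 3.57% (3.24% to 3.92%), a ratio of 11.2 (7.76 to 16.7). With a cut of 2% of UMIs, met by 13 and 118 cells, the ratio was 7.44 (4.19 to 14.4). The cells past 0.5% held 86.3% and 85.0% of the member UMIs. A cut in a continuous measure is a range and not a cell type. In the control 8 cells lay within 2-fold below the cut and 8 within 2-fold above it, and in SCD 160 and 157. The richest cell gave 5.91% of its UMIs to the members in the control and 9.04% in SCD.

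Azurophil-high cells were deep, with a median of 32128 UMIs in the control and 35353 in SCD, and 18 of the 31 and 251 of the 423 had over 5000 genes. None of the control and 3 of the SCD ones were called doublets. In the control 14 lay in cluster 7, 11 in cluster 10 and 4 in cluster 16. In SCD 243 lay in cluster 7, 129 in cluster 10 and 37 in cluster 16, an unnamed cluster in which 42.6% of cells were called doublets. Within cluster 10 the azurophil-high share was 16.7% (8.63% to 27.9%) in the control and 19.9% (16.9% to 23.2%) in SCD. Within cluster 7 it was 15.1% (8.48% to 24.0%) in the control and 28% (25% to 31.1%) in SCD. These intervals cover counting error over cells only. Cells of a library are not replicates, so the higher share in the SCD library is given as a description.

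The filters left out part of these cells. Over every barcode 42 control and 577 SCD cells met the rule, of which 11 and 154 fell outside the kept cells. The limit on ribosomal UMIs alone took out 8 and 126 of them, with 33.5% of the control and 26.2% of the SCD member UMIs. Azurophil-high cells had a median of 26.0% and 26.8% ribosomal UMIs against 12.7% and 5.55% over all barcodes. The ratio of azurophil-high shares over every barcode was 11.1 (8.09 to 15.5), and the summed members stood at 383 and 2282 CPM.

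To place azurophil-high cells by lineage, UMIs of 8 neutrophil-side genes (Fcnb, Cebpe, Gfi1, Cd177, Ltf, Camp, Ngp and Lcn2) were set against 8 monocyte-side genes (Irf8, Csf1r, Ly86, F13a1, Klf4, Ccr2, Cx3cr1 and Ctss). On the neutrophil side lay 17 of 31 control cells, 54.8% (36.0% to 72.7%), and 186 of 423 SCD cells, 44% (39.2% to 48.9%). On the monocyte side lay 14 and 236, and 1 SCD cell was tied. The intervals of these shares overlapped between the libraries, and no test was run. Few cells lay near an even split of these sums. Only 1 control and 9 SCD cells of the neutrophil side, and 1 and 13 of the monocyte side, lay within 2-fold of it. Yet Camp and Ngp were held by 99.2% and 99.6% of SCD monocyte-side cells, against 50% and 71.4% in the control. Those SCD cells had a median of 23 neutrophil-side UMIs, against 6 in the control. Of the SCD neutrophil-side cells, 36 lay in cluster 16, 10 in cluster 7 and 5 in the erythroid-like cluster 8.

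The sides bore their own regulators. Cebpe, the factor of the later promyelocyte, stood at 459 CPM in the control and 398 CPM in SCD on the neutrophil side, against 35.3 and 10.3 CPM on the monocyte side. Irf8, which directs monocyte and DC fate, stood at 75.2 and 104 CPM on the neutrophil side against 681 and 626 CPM on the monocyte side. Because Cebpe and Irf8 helped to define the sides, these values describe the split. Myb, a factor of immature precursors that the split did not use, stood at 194 and 235 CPM on the neutrophil side and 219 and 144 CPM on the monocyte side.

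The make-up of the members differed between the sides in the same direction in both libraries. Elane gave 45.1% (44.3% to 46.0%) of the member UMIs on the control neutrophil side and 26.1% (25.2% to 27.1%) on the control monocyte side. In SCD it gave 38.3% (38.1% to 38.6%) and 17.9% (17.7% to 18.1%). Mpo went the other way, with 17.0% on the neutrophil side and 29.4% on the monocyte side in the control, and 17.0% and 26.4% in SCD. Ctsg also had the larger share on the monocyte side, 5.28% against 10.5% in the control and 7.44% against 12.1% in SCD. Ms4a3 had the smaller share there, 4.14% against 2.60% and 4.08% against 2.48%. Between the libraries, Prtn3 had the larger share in SCD on both sides, 28.4% against 33.2% on the neutrophil and 31.3% against 41.2% on the monocyte side, and Elane the smaller one.

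**Figure D4:**
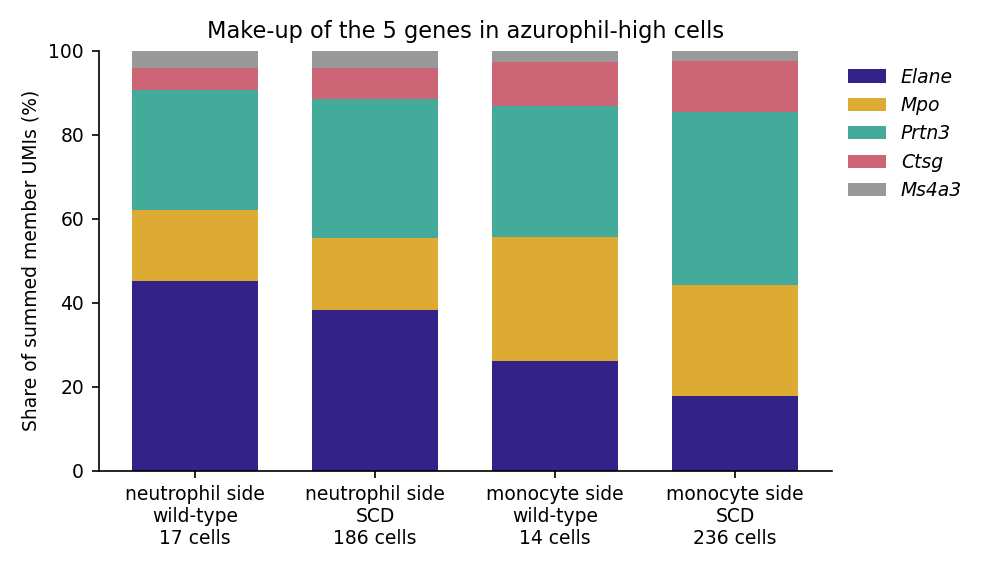
Share of each member among the summed member UMIs (%) in azurophil-high kept cells, by lineage side and library, with the number of cells under each bar. Elane takes 45.1% and 38.3% on the neutrophil side and 26.1% and 17.9% on the monocyte side.

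In level, the neutrophil side was the richer. Summed members stood at 30908 CPM in the control and 24065 CPM in SCD on that side, and at 15619 and 12463 CPM on the monocyte side. Elane made most of this gap, at 13951 and 9219 CPM against 4078 and 2231 CPM. Mpo differed little, at 5265 and 4096 CPM against 4599 and 3290 CPM. Ctsg stood at 1630 and 1790 CPM on the neutrophil side and 1646 and 1503 CPM on the monocyte side.

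Single cells bore out the sums. Elane exceeded Mpo in 13 of 17 control and 150 of 186 SCD cells on the neutrophil side, and in 6 of 14 and 69 of 236 on the monocyte side. As a share of the 5 members, Elane ran from 16.1% to 56.1% in the control neutrophil-side cells with a median of 48.2%, and in SCD had a median of 41.8% with an interquartile range of 30.8% to 47.4%. On the monocyte side the control cells ran from 2.14% to 39.3% with a median of 21.3%, and the SCD median was 15.7% with an interquartile range of 10.2% to 22.6%. In SCD the interquartile ranges of the sides did not overlap, although single cells did. In the control they ran from 31.7% on the neutrophil side and up to 31.3% on the monocyte side in kept cells, and over every barcode they overlapped, from 31.7% and up to 33.5%. Cells of 1 library are not replicates, and no test was run on them.

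**Figure D5:**
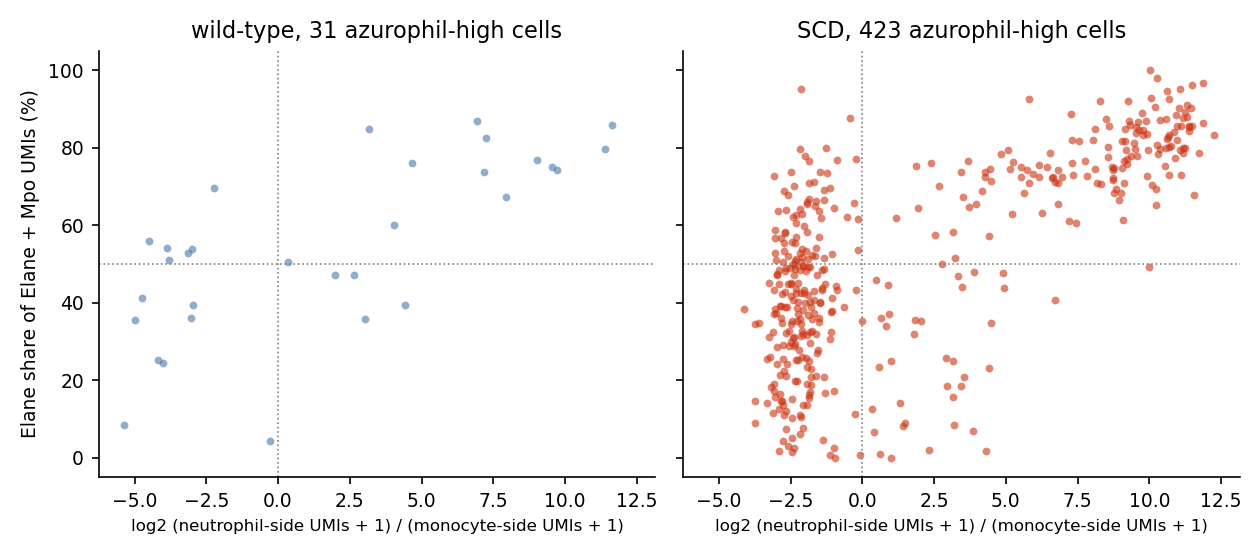
Elane as a share of Elane and Mpo UMIs together (%) in each azurophil-high kept cell, against the log2 ratio of neutrophil-side to monocyte-side UMIs (1 added to each), for 31 wild-type and 423 SCD cells. Cells to the right of the dotted line lie on the neutrophil side and mostly above 50%, in 13 of 17 wild-type and 150 of 186 SCD cells.

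A split at higher resolution drew the core out. At Leiden resolution 2, a neutrophil-like cluster of 104 cells (12 control and 92 SCD) held 31.6% of all kept member UMIs at 39093 CPM. Elane alone stood at 16259 CPM in it, Prtn3 at 12448 CPM and Mpo at 6048 CPM, and Nkg7, Prss57 and Cst7 were among its leading genes. The neighbouring neutrophil-like cluster of 526 cells, led by Fcnb, Chil3 and Camp, stood at 2018 CPM, with Ctsg down to 36.1 CPM and Ms4a3 at 209 CPM. Monocyte-like clusters of 438 and 516 cells stood at 5617 and 5310 CPM, and a further one of 292 cells, led by Ighg3, Mpo and Ctsg, at 3161 CPM. This last one had Ighg3, Igkc, Saa3 and Fn1 among its leading genes, as had the unnamed cluster 16, where 42.6% of cells were called doublets.

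Among cells of cluster 10 that were not azurophil-high the make-up was another one. Ms4a3 gave 41.4% of their member UMIs in the control (55 cells) and 32.2% in SCD (520 cells), against 4.15% and 4.21% in the azurophil-high cells of the same cluster. Its level there was 131 and 138 CPM. Mpo stood at 12.7 and 26.5 CPM in these cells, beside 1.92 and 14.9 CPM in the pooled background classes. Ctsg stood at 3.73 and 6.86 CPM, beside 0.817 and 5.10 CPM. In SCD, plasmacytoid DC-, B cell- and red pulp macrophage-like cells taken singly stood at 25.4, 34.5 and 45.8 CPM for Mpo. For Ctsg they stood at 11.9, 10.6 and 14.6 CPM, so neither gene stood above the range of single background classes.

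Other genes of the granule and its control were read in neutrophil-like cells from lists. Of 13 other azurophil granule and processing genes 8 were expressed. None was higher in SCD by 2-fold and 3 were lower, beside 1.33% higher and 19.4% lower of all 2483 expressed genes, with a median log2 difference of -0.44 beside -0.37 for all genes. Those lower were Srgn, the serglycin core that holds granule proteins (3199 and 571 CPM), Ctsd, cathepsin D (719 and 298 CPM), and Man2b1, a lysosomal mannosidase (417 and 167 CPM). Lyz2 (6914 and 10219 CPM), the tetraspanin gene Cd63 (297 and 304 CPM), Hexa (123 and 85.8 CPM) and Npc2 (101 and 76.2 CPM) were within 2-fold.

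Of 9 protease inhibitors 5 were expressed, 1 of them higher and 2 lower, beside the same 1.33% and 19.4% of all expressed genes. Serpinb1a, the intracellular inhibitor of elastase, proteinase 3 and cathepsin G, was the higher one, at 287 and 599 CPM, a ratio of 2.08 (2.02 to 2.15). Slpi, a secreted elastase inhibitor, stood at 3639 and 1170 CPM, and Cst3, cystatin C, at 1374 and 522 CPM. Cstb (142 and 71.2 CPM) and Stfa1 (56.1 and 55.7 CPM) did not pass 2-fold. Of 8 regulators 3 were expressed and none passed 2-fold, Cebpe standing at 224 and 418 CPM, Runx1 at 74.9 and 52.4 CPM and Spi1 at 762 and 502 CPM.

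All 5 specific granule genes, of the stage after the azurophil one, were expressed, and 1 was higher by 2-fold, beside 1.33% of all expressed genes. Ngp stood at 14706 and 30554 CPM. Camp (20125 and 37669 CPM), Ltf (5207 and 9126 CPM), Lcn2 (7219 and 13072 CPM) and Cd177 (594 and 1169 CPM) had log2 differences of 0.90, 0.81, 0.86 and 0.97, just short of it. Over all kept cells all 5 of this list were higher by 2-fold, with a median log2 difference of 1.64, beside 2.24% of all expressed genes. In monocyte-like cells 4 were higher and 1 lower, beside 4.8% higher and 8.54% lower of all 3560 expressed genes. The 4 higher ones reached 50 CPM in SCD alone and are a description. The difference in cluster mix between the libraries moves with all of these list values.

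In the azurophil-high cells of the neutrophil side list genes stood above or below the neutrophil-like cells that were not azurophil-high, and not in 1 direction per list. The side is not a part of that class. Its 186 SCD cells included 131 of the neutrophil-like class, and 36 lay in cluster 16. Prss57, a further serine protease of the azurophil granule, stood at 289 and 216 CPM against 11.2 and 13.3 CPM. Cst7, cystatin F, an inhibitor of cathepsin C, stood at 248 and 180 CPM against 0.317 and 1.49 CPM. Gfi1, a repressor needed for neutrophil precursors, stood at 99.5 and 57.8 CPM against 8.68 and 14.1 CPM. Lower in them in both libraries were Lyz2 (2987 and 2714 CPM against 7003 and 10629), Ctsd (121 and 134 against 730 and 308), Man2b1 (170 and 103 against 422 and 170), Slpi (284 and 269 against 3705 and 1229), Stfa1 (0 and 4.64 against 57.1 and 58.7) and Spi1 (284 and 272 against 772 and 514). Ltf was also lower, at 726 and 858 CPM against 5305 and 9629 CPM. Camp was of the same order in both groups of cells, at 27315 and 22159 CPM against 19946 and 37887 CPM. Gfi1, Ltf and Camp were among the genes that set the sides, so their values describe the split. Bpi gave 1 UMI in all neutrophil-like cells.

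Over 40 units of cluster and library with at least 50 cells, the members followed one another. As a description, Pearson correlations of log2(CPM + 5) between pairs of members ran from 0.85 (Mpo and Ms4a3) to 0.98 (Mpo and Ctsg). Among 7283 other genes, those most like the summed members were Nkg7 (0.82), Cst7 (0.79), Igfbp4 (0.78), Cdkn3 (0.73) and Prss57 (0.69). Units of 1 library may share depth and free RNA, which was not tested, and clusters 10 and 7 set most of the range.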

How the data were processed

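Spleen suspensions enriched for DCs were processed by 10x 3′ chemistry, 1 library per group. Per the labels and methods, the authors aligned to GRCm38.p6 and counted with Cell Ranger 4.0.0, and deposited filtered matrices of UMI counts, whose totals are 97880318 (control) and 189688217 (SCD). The members and lists were chosen with earlier results of these data known. Cells with at least 500 genes, under 15% mitochondrial and under 30% ribosomal UMIs were kept. The study's limit of 5000 genes was an alternative. Counts were scaled with scran 1.30.0, and 2000 variable genes without the members, 30 components, 15 neighbours and Leiden clustering at resolution 1 (Scanpy 1.11.5) gave 24 clusters. A cluster took the class whose 8 best markers scored highest by a margin of 0.05. It stayed unnamed where fewer than 3 markers were detected or where another class had more markers among its 10 leading genes. This left clusters 12, 15 and 16 unnamed. Doublets (Scrublet, 382 and 303 cells) were kept in the main analysis. Levels are CPM of summed UMIs with exact Poisson intervals, shares have exact Clopper-Pearson intervals, and ratios conditional binomial ones. UMIs were summed per library and class. Log2 differences added 5 CPM. With 1 library per group no test was run, and called means past 2-fold among genes with at least 50 CPM and 20 UMIs in 1 library. Named genes were the members, the expressed genes of 4 lists in neutrophil-like cells, and the 5 genes most alike over clusters. The values of 1 expressed list gene are not reported here. Genes of these lists named in azurophil-high cells were picked after their values were seen. The fold calculation and the intervals were tested on simulated data.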

Additional observations from a re-analysis of the deposited data

Results flagged for a closer look

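Barcodes outside the kept cells held the members at a higher level than the kept cells did. In the 1592 SCD barcodes that the filters left out the summed members stood at 6631 CPM, against 708 CPM in the 1127 control ones, and 154 of the SCD and 11 of the control barcodes were azurophil-high. They were picked out because these barcodes enter none of the class comparisons. On their neutrophil side the progenitor genes Kit, Cd34, Flt3 and Myb had a median of 17 UMIs per cell in the 64 SCD cells and 24 in the 4 control cells, against 5 and 5 in the kept cells of that side. On their monocyte side the medians were 18 in SCD and 9 in the control, against 5 and 8.5 in the kept cells. These cells differed in depth. In CPM the progenitor genes summed to 760 in SCD and 645 in the control on the neutrophil side, against 318 and 255 in kept cells. On the monocyte side they summed to 488 and 622 CPM, against 223 and 327 CPM. The neutrophil side of the left-out cells rested on few UMIs. Its cells had a median of 26 neutrophil-side UMIs in SCD and 24 in the control, beside 2 and 2 monocyte-side UMIs. Kept cells of that side had 840.5 and 300 neutrophil-side UMIs, and kept SCD cells of the monocyte side had 23.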

How the results depend on the processing

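No paired analysis was possible because there was 1 library per group, and for the same reason no replicate could be left out. Of 156 alternatives for the library and class results 2 were reversals, both of the order of the classes given below. None turned a difference between SCD and control around. Within clusters some did, in 2 settings added after the data were seen. With at most 5000 genes the SCD over control ratio in cluster 10 went from 0.976 to 1.79 for Elane and from 0.867 to 1.52 for Mpo. In cluster 7 that of Elane went from 0.993 to 2.36. Without the 10 richest cells of each library these 3 ratios were 2.73, 3.22 and 2.31. The sums moved in these settings but did not turn. They went from 1.04 to 1.90 and 3.10 in cluster 10, and from 1.43 to 3.0 and 2.75 in cluster 7. The order of the classes did turn, as given in the report: with at most 5000 genes per cell the neutrophil-like over monocyte-like ratio was 4.20 in the control and 1.79 in SCD. It moved to 0.812 and 0.533 at Leiden resolution 2, to 0.862 and 0.430 with each cell classed by its own markers, and to 0.465 in SCD without doublets. The limit of 5000 genes also moved the log2 ratio to 3.38 over all kept cells, 2.18 in neutrophil-like and 3.35 in monocyte-like cells, and the percent of SCD cells holding 50% of the UMIs to 0.432. Leaving out the 10 richest cells of each library gave 3.65, 2.87 and 3.07. These cells held 58.0% of the control and 7.92% of the SCD member UMIs, so the control level rests on few cells. Median-of-ratios scaling gave 2.59 over all kept and 1.56 in neutrophil-like cells, where the median of the gene ratios it scaled by was 0.837 over 1767 genes. A pseudocount of 20 CPM gave 2.50 and the removal of doublets 2.51 over all kept cells. In neutrophil-like cells resolution 2 gave 1.45 and each cell's own markers 1.35, and these markers gave 2.35 in monocyte-like cells. Thinning gave a share ratio of 8.31 for any member UMI. A cut of 2% gave a ratio of 7.44 for azurophil-high cells. With no ribosomal limit, added after the data were seen, 1.29% of SCD cells held 50% of the UMIs. Of 100 alternatives for single members 57 left the counting interval, with log2 ratios from 0.97 to 3.54. Only 31 control cells were azurophil-high, which limits every control share within them.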
